A study of Homo sapiens with 12 samples.

Results

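The *MYC*, *MAX* and *MXD* network was taken as 10 genes, selected by symbol from the table of read counts: the activators *MYC*, *MYCN* and *MYCL*, their shared partner *MAX*, and the antagonists *MXD1*, *MXD3*, *MXD4*, *MXI1*, *MNT* and *MGA*. All 10 were among the 60612 gene rows used, and all 10 kept an adjusted p-value in each of the 5 comparisons made below. RNA was sequenced from ZR-75-1 cells, a human oestrogen receptor-positive breast cancer line. Cells had either passed through CRISPR editing with a control guide RNA (sgControl) or had lost *RB1*, which encodes the retinoblastoma protein Rb. Each genotype was grown for 5 days in the solvent DMSO or in 500 nM abemaciclib, an inhibitor of the cell cycle kinases CDK4 and CDK6, giving 4 groups with 3 replicates each. Both genotypes are called clones in the labels, single-cell sorting is described for the knockout lines only, and the sources used here do not say how many clones the replicates of a group stand for, so p-values measure the spread between these samples only.

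MYC proteins bind DNA as heterodimers with MAX, mainly at the E-box sequence, and activate genes for ribosome production, metabolism and growth. MXD proteins, MNT and MGA also pair with MAX and compete for E-boxes, where the MXD proteins and MNT recruit SIN3 and histone deacetylases and MGA belongs to a Polycomb complex called PRC1.6. In many tissues *MYC* is lowered and MXD family members are raised when cells leave the cycle, whereas *MXD3* is known as the member expressed in S phase. Messenger RNA levels do not report on MYC protein, which turns over rapidly through ubiquitin ligases.

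*RB1* matched the genotype label of every library, and *MKI67* matched the drug label of the sgControl libraries. *RB1* had normalized counts (counts divided by the size factor of the library) of 39.6 to 51.2 in the knockout in DMSO and 44.2 to 63.5 in abemaciclib, against 4154 to 4825 and 2252 to 2489 in sgControl. The proliferation marker *MKI67* was at 21670 to 33374 in DMSO-treated sgControl cells and 272 to 441 in abemaciclib. In the knockout *MKI67* was at 32861 to 38708 in DMSO and 26768 to 32037 in abemaciclib. That difference did not pass the test (−0.28 ± 0.20 on the log2 scale, adjusted p = 0.309, DESeq2). The drug label of the knockout libraries was therefore not checked by these genes. Library totals ran from 39907318 to 81636393 counts. One library stood apart: sgControl DMSO replicate 1 had a chi-square per gene of 45.7 and 95.3 against the other replicates of its group, where no other pair of replicates exceeded 16.6. Without it 9 members were called in the sgControl response, 3 in the knockout response, 9 in the interaction and 8 in each comparison between genotypes, and the calls that changed were those of *MGA* given below. Apart from *MYCN*, the sgControl responses of the other called members were then −0.23 for *MYC*, 0.31 for *MAX*, 0.63 for *MXD1*, −3.09 for *MXD3*, 1.21 for *MXD4*, 0.31 for *MXI1* and 0.61 for *MNT* on the log2 scale, and that of *MGA* was −0.58. *MYCN* was still called lower, and no size is given because its counts in treated sgControl cells were 0. The 7 luminal epithelial markers summed to normalized counts of at least 624600 in every library. The marker sets of basal cells, leukocytes and endothelium, each summed by itself, reached at most 12.1. The 3 fibroblast markers summed to normalized counts of 1894 to 3037 and were higher with the drug in both genotypes. Nearly all of this was the collagen gene *COL1A1*, at 2097 to 2392 in DMSO and 2787 to 3031 in abemaciclib in sgControl cells and at 1879 to 2055 and 2556 to 2667 in the knockout. *PDGFRB* was at 18.3 or less in every library, and *COL1A2* was at 0 except in the treated knockout, where it reached 2.27. The mitochondrial share of counts was higher with the drug, at 7.73% ± 0.70 against 3.49% ± 0.60 for sgControl and 6.13% ± 1.09 against 3.98% ± 0.18 for the knockout (SD, n = 3), and the part of this share and of *COL1A1* in the results below was not tested.

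Promoters were examined for 9 of the 10 members, which had 14 RefSeq promoter windows between them, and *MYC* had no entry in the table. The 250 bases before each start were searched on both strands for the E-box CACGTG, which 6.34% of 35116 RefSeq promoters of this length held. The E-box was present in the windows of *MXD4*, 238 bases before its start, and *MNT*, 193 bases before its start. No E-box was found in any window of the other 7 members examined, among them *MXD3* and *MGA*, which were called lower in sgControl cells in abemaciclib, and *MXD1*, *MXI1* and *MAX*, which were called higher. The E2F letters TTTCCCGC, TTTGGCGC, TTTCGCGC and TTTGCCGC (2.79% of promoters) and the CHR letters TTTGAA (13.3%) were found only in the window of *MYCN* and in 1 of the 3 windows of *MGA*. The 3 windows of *MXD4*, *MNT* and *MXD3* are shown on the strand of the gene, from the RefSeq table for GRCh38.p14, because they are the antagonists that rose in both genotypes and the one with the deepest fall; capitals mark the E-box, and a match in letters does not show binding. They lie at chr4:2262110-2262359, chr17:2401061-2401310 and chr5:177312753-177313002, all on the minus strand.
MXD4: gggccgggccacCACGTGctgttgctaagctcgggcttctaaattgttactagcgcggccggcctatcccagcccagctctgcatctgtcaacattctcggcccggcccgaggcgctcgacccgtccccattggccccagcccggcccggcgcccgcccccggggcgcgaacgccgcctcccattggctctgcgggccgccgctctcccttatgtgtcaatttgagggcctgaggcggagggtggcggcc
MNT: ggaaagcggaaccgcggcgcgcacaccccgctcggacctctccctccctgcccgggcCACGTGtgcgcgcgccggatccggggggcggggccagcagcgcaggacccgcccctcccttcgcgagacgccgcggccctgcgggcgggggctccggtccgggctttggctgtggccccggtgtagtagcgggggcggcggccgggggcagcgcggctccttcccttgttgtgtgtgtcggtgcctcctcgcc
MXD3: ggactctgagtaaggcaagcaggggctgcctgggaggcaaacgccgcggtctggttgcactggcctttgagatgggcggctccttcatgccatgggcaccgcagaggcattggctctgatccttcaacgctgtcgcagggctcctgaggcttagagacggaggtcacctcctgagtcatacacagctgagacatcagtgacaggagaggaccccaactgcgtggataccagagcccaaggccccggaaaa

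The first question was how the network responds to CDK4/6 inhibition when *RB1* is intact. Abemaciclib changed 9 of the 10 members in sgControl cells, 5 upwards and 4 downwards, at an adjusted p-value under 0.05 (DESeq2, two-sided Wald test), where 49.8% of all 22723 genes tested were called. The antagonists moved in both directions. *MXD4*, *MNT*, *MXD1* and *MXI1* rose, *MXD3* and *MGA* fell, and *MYC* fell slightly. In *RB1*-knockout cells 3 of the 10 members changed, all upwards, against 30.0% of 18546 genes: *MYC*, *MXD4* and *MNT*. The responses of the genotypes differed (the interaction) for 8 members, of which 3 responded more positively and 5 more negatively without *RB1*, against 41.4% of 20932 genes. Counts of 9 of 10 and 8 of 10 stood above these shares and 3 of 10 equalled the share of all genes. The shares cover tested genes at every level, and shares among genes as abundant as the members were not computed. In bulk samples, fewer cells of a type and less RNA per cell cannot be told apart. Between the genotypes, the same holds for loss of *RB1* and differences between clones.

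**Figure D1:**
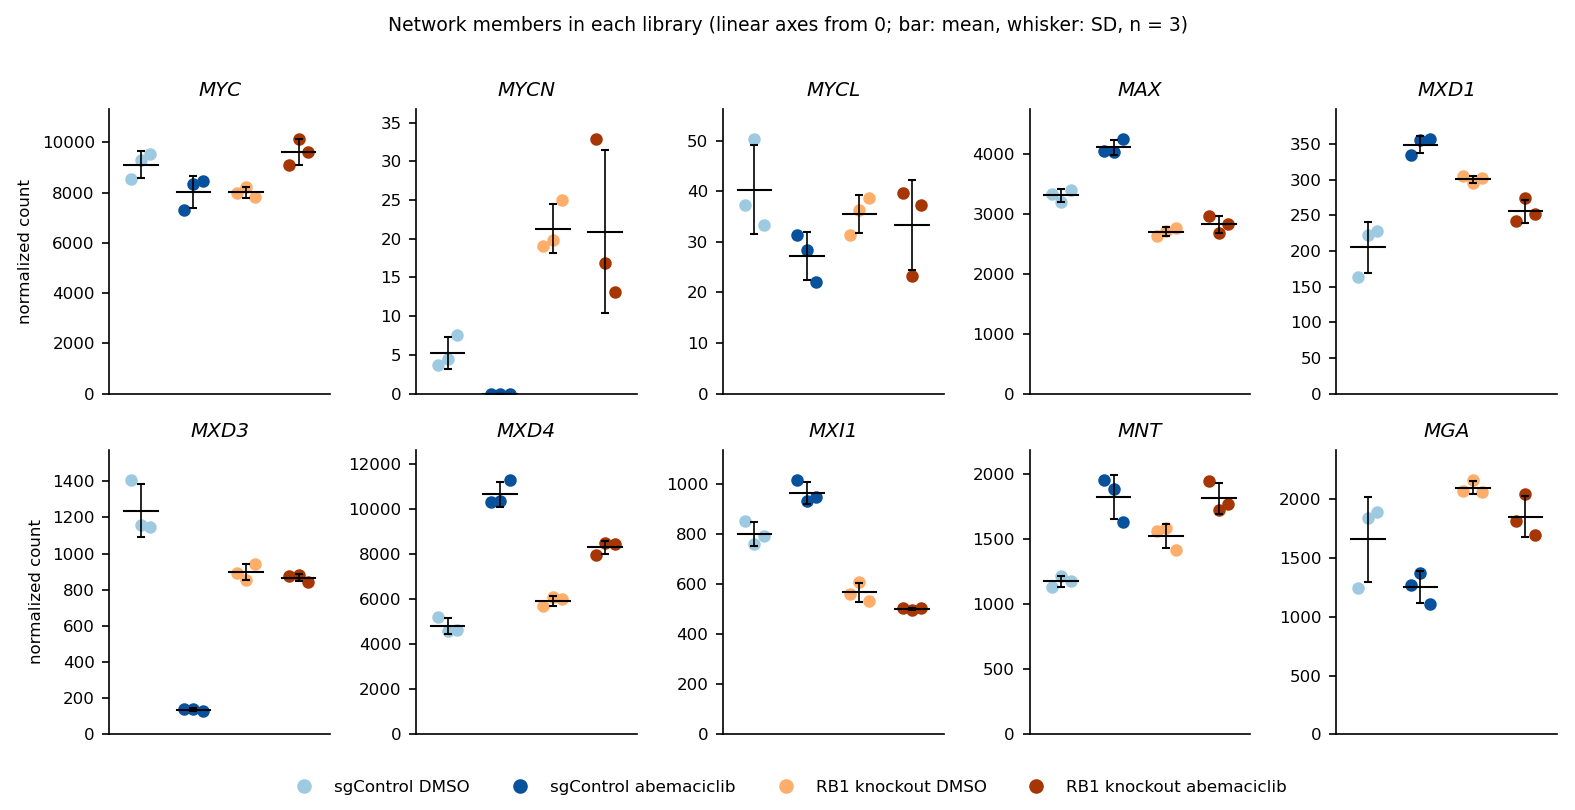
Normalized counts of the 10 members (vertical axes, linear from 0) in each of the 12 libraries, with the mean and SD of each group of 3. *MXD3* sits between 127 and 142 in sgControl cells in abemaciclib and at 844 or more elsewhere, and *MXD4* is highest in the same group, at 10305 to 11295.

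Among the activators, *MYC* (chromosome 8, positions 127735434 to 127742951 of GRCh38) was the abundant member. Its normalized counts were 8529, 9299 and 9533 in DMSO-treated sgControl cells and 7300, 8326 and 8471 in abemaciclib. All 3 treated libraries lay below all 3 controls, but the highest treated and the lowest control library nearly touched. The log2 fold change was −0.18 ± 0.07 (SE, adjusted p = 0.0199), and the call was lost (adjusted p = 0.0760, 0.0820 and 0.150) when sgControl DMSO replicate 2 or 3 or sgControl abemaciclib replicate 1 was left out. In the knockout the counts were 7991, 8242 and 7818 in DMSO and 9096, 10123 and 9601 in abemaciclib, with every treated library above every control. *MYC* rose by 0.26 ± 0.07 on the log2 scale there (adjusted p = 0.00134), so the genotypes differed in direction, with an interaction of 0.44 ± 0.10 (adjusted p = 3.68e-05). In abemaciclib *MYC* messenger RNA stood at 8032 ± 638 (SD, n = 3) in sgControl cells, in which *MKI67* was 75.9-fold lower than in DMSO.

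*MYCN*, the neural family member, was barely detected in sgControl cells and was found in the knockout. It had normalized counts of 3.72, 4.41 and 7.56 in DMSO-treated sgControl cells and 0 in all 3 libraries in abemaciclib. The knockout held 19.1, 19.8 and 25.0 in DMSO and 32.8, 16.8 and 13.1 in abemaciclib, above every sgControl library. Against a floor of 3 counts per library in treated sgControl cells, mean *MYCN* was 1.84-fold higher in DMSO-treated sgControl cells and 7.36-fold higher in the treated knockout. These folds leave out the spread of the means. Both differences were called by DESeq2 (adjusted p = 0.000401 and 2.04e-07), which tests against no change and not against these folds. These values rest on 21 raw counts in untreated sgControl cells, 58 in the treated knockout and 0 in treated sgControl cells, and the floor covers counting error only. In DMSO the knockout exceeded sgControl by 1.99 ± 0.58 on the log2 scale (adjusted p = 0.00282). *MYCN* did not pass the test for a response in the knockout (−0.04, 95% interval −1.06 to 0.99).

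*MYCL*, the third family member, was low throughout, at 37.2, 50.2 and 33.4 in DMSO-treated sgControl cells and 31.3, 28.3 and 22.0 in abemaciclib. The treated libraries lay below the controls, yet the log2 difference of −0.57 ± 0.31 did not pass the test (adjusted p = 0.126). It passed with size factors from total counts (adjusted p = 0.0475), a scaling that moved the median of all expressed genes from −0.02 to −0.16 in this comparison and from −0.0036 to 0.13 in the interaction. In the knockout *MYCL* ran from 31.4 to 38.7 in DMSO and from 23.2 to 39.6 in abemaciclib, with overlapping groups.

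*MAX*, the obligate partner of both sides (chromosome 14, positions 65006174 to 65102695), had normalized counts of 3337, 3198 and 3410 in DMSO-treated sgControl cells and 4056, 4035 and 4251 in abemaciclib. It rose by 0.31 ± 0.05 on the log2 scale (adjusted p = 3.96e-08), with no overlap. In the knockout it was at 2633, 2719 and 2770 in DMSO and at 2965, 2687 and 2834 in abemaciclib. These groups overlapped and the difference of 0.06 ± 0.06 did not pass the test. The interaction was −0.25 ± 0.08 (adjusted p = 0.00465), a call that total-count factors ended (adjusted p = 0.376). *FNTB*, a protein-coding gene that overlaps *MAX* on the opposite strand, was far less abundant, with means of 411.9 to 525.9, and had a log2 fold change of −0.23 ± 0.10 in sgControl cells.

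*MXD3* showed the largest called change among the members other than *MYCN*. It lies at positions 177301461 to 177312757 on the minus strand of chromosome 5. Its normalized counts were 1407, 1161 and 1145 in DMSO-treated sgControl cells and 142, 139 and 127 in abemaciclib, so that the 3 treated libraries lay far below the controls. *MXD3* was 9.10-fold lower in abemaciclib (log2 fold change −3.19 ± 0.11, adjusted p = 1.57e-175). In the knockout they were 894, 856 and 942 in DMSO and 879, 879 and 844 in abemaciclib, and the groups overlapped. The difference there was −0.05 (95% interval −0.24 to 0.14), and the interaction was 3.14 ± 0.15 (adjusted p = 9.56e-99). *MXD3* shares sequence on the same strand with *RAB24*, whose log2 fold change in sgControl cells was 1.20 ± 0.13, and overlaps *PRELID1* on the opposite strand, at −0.20 ± 0.11. Neither neighbour had a fall of the size seen for *MXD3*.

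*MXD4*, at positions 2247432 to 2262109 of chromosome 4, was the most abundant antagonist and rose in both genotypes. In sgControl cells its normalized counts were 5234, 4586 and 4628 in DMSO and 10305, 10386 and 11295 in abemaciclib. In the knockout they were 5690, 6094 and 6014 in DMSO and 7968, 8503 and 8448 in abemaciclib. In each genotype every treated library exceeded every control, and the treated knockout libraries stayed below the treated sgControl libraries. The log2 fold changes were 1.15 ± 0.07 in sgControl cells (adjusted p = 9.97e-68) and 0.49 ± 0.07 in the knockout (adjusted p = 4.92e-12), and they differed by −0.66 ± 0.09 (adjusted p = 7.83e-12).

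*MNT*, an antagonist found in most cells whether or not they divide (chromosome 17, positions 2384073 to 2401104), followed *MXD4* in direction. In sgControl cells it went from 1136, 1215 and 1178 to 1955, 1884 and 1636, and the knockout went from 1560, 1590 and 1420 to 1951, 1724 and 1770. Neither pair of groups overlapped. The log2 fold changes were 0.63 ± 0.08 (adjusted p = 1.21e-13) and 0.25 ± 0.08 (adjusted p = 0.0111), and they differed by −0.38 ± 0.12 (adjusted p = 0.00392). The rise in the knockout was not called without knockout DMSO replicate 3 (adjusted p = 0.0929) or knockout abemaciclib replicate 1 (adjusted p = 0.102), and the interaction was not called with total-count factors (adjusted p = 0.0908).

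*MXD1* and *MXI1*, 2 further MXD repressors, rose in sgControl cells and had lower means with the drug in the knockout. *MXD1*, a gene of differentiating cells on chromosome 2 (69897688 to 69942945), went from 164, 223 and 229 to 335, 356 and 357 in sgControl cells, a log2 fold change of 0.76 ± 0.13 (adjusted p = 7.54e-09). In the knockout it was at 305, 295 and 302 in DMSO and 242, 274 and 252 in abemaciclib. The groups were separate, but the difference of −0.23 ± 0.13 did not pass the test (adjusted p = 0.181). The interaction was −0.99 ± 0.18 (adjusted p = 2.81e-07). *SNRNP27*, which overlaps *MXD1* on the same strand, had log2 fold changes of −0.16 ± 0.08 and −0.19 ± 0.09 in the 2 genotypes, neither past the threshold.

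*MXI1* (chromosome 10, 110207605 to 110287365) had normalized counts of 854, 760 and 792 in DMSO-treated sgControl cells and 1017, 934 and 951 in abemaciclib. It rose by 0.27 ± 0.08 on the log2 scale (adjusted p = 0.00142), a call lost with total-count factors (adjusted p = 0.102). In the knockout its counts were 563, 610 and 534 in DMSO and 504, 497 and 505 in abemaciclib, lower in all 3 treated libraries but not past the threshold (−0.18 ± 0.09, adjusted p = 0.105). The interaction was −0.45 ± 0.12 (adjusted p = 0.000442).

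*MGA*, the largest protein of the network and the one that scaffolds PRC1.6 (chromosome 15, 41621134 to 41773081), had normalized counts of 1243, 1835 and 1891 in DMSO-treated sgControl cells and 1267, 1375 and 1110 in abemaciclib. Replicate 1 in DMSO stood below the other controls and inside the treated range. The log2 fold change of −0.41 ± 0.13 (adjusted p = 0.00598) was not called without sgControl DMSO replicate 2 (adjusted p = 0.0545) or sgControl abemaciclib replicate 3 (adjusted p = 0.0581). In the knockout the counts were 2070, 2161 and 2060 in DMSO and 1810, 2045 and 1698 in abemaciclib, and the difference of −0.18 ± 0.13 did not pass the test (adjusted p = 0.339). The difference between the genotypes in the *MGA* response did not pass the test (0.23, 95% interval −0.15 to 0.60), although the interaction was called without sgControl DMSO replicate 1 (0.40, adjusted p = 0.00247).

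**Figure D2:**
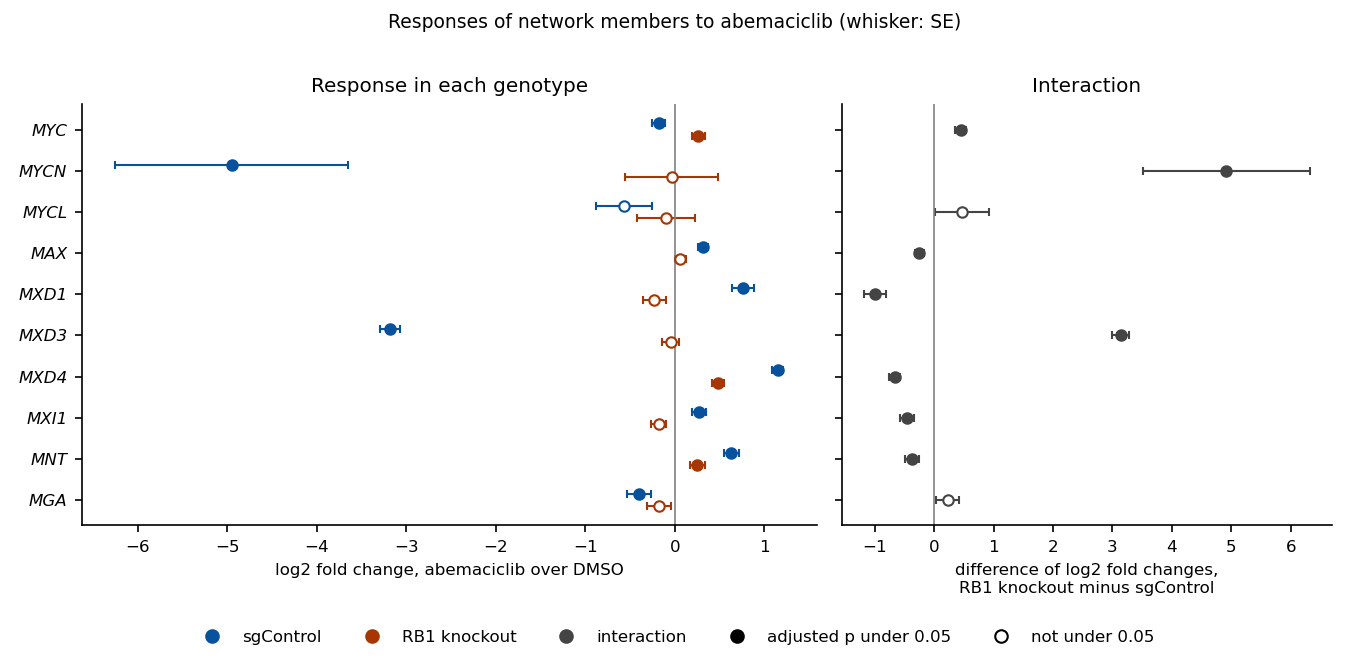
Log2 fold changes of the members under abemaciclib in each genotype (left) and their difference (right), with whiskers of 1 SE; filled points have an adjusted p-value under 0.05. *MXD4* and *MNT* lie right of 0 in both genotypes, *MYC* lies on opposite sides of 0, and the *MYCN* points in sgControl cells and in the interaction rest on a group with 0 counts, so their position depends on the model and is no size.

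Both genotypes are called clones, so loss of *RB1* and differences between clones cannot be told apart. The genotypes were first compared in DMSO. There 9 of the 10 members differed between knockout and sgControl, 5 higher and 4 lower, against 37.4% of 16755 genes. *MXD1* (0.54 ± 0.13, adjusted p = 0.000167), *MNT* (0.37 ± 0.08, adjusted p = 5.90e-05), *MXD4* (0.30 ± 0.07, adjusted p = 3.32e-05), *MGA* (0.34 ± 0.13, adjusted p = 0.0323) and *MYCN* were higher in the knockout. *MXI1* (−0.49 ± 0.08, adjusted p = 3.37e-08), *MXD3* (−0.46 ± 0.09, adjusted p = 6.06e-06), *MAX* (−0.29 ± 0.06, adjusted p = 1.40e-06) and *MYC* (−0.19 ± 0.07, adjusted p = 0.0246) were lower. The *MYC* call was lost without sgControl DMSO replicate 2 or 3 or knockout DMSO replicate 1 or 3 (adjusted p = 0.0930, 0.0999, 0.0859 and 0.120), and the *MGA* call was lost without sgControl DMSO replicate 1 or any of the 3 knockout DMSO replicates (adjusted p = 0.122, 0.0743, 0.119 and 0.0722). For *MGA*, leaving out sgControl DMSO replicate 1 also moved the difference to 0.17.

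With abemaciclib present, 8 members differed between the genotypes, 4 higher and 4 lower in the knockout, against 55.9% of 21529 genes. *MXD3* stood at 2.68 ± 0.11 above sgControl on the log2 scale (adjusted p = 2.88e-120), *MGA* at 0.57 ± 0.13 (adjusted p = 7.16e-05) and *MYC* at 0.26 ± 0.07 (adjusted p = 0.000604). *MXI1* (−0.94 ± 0.08, adjusted p = 3.50e-29), *MAX* (−0.54 ± 0.06, adjusted p = 6.24e-22), *MXD1* (−0.45 ± 0.13, adjusted p = 0.000996) and *MXD4* (−0.36 ± 0.07, adjusted p = 1.09e-07) were lower, and *MYCN* was higher as given above. *MXD1* and *MXD4* were therefore above sgControl in DMSO and below it in abemaciclib, while *MXI1* and *MAX* were below it in both. For *MNT* the treated genotypes overlapped, with a difference of −0.01 (95% interval −0.17 to 0.15). These comparisons share samples with the drug responses above.

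Levels of different members were compared as normalized counts per kilobase of exon, counting each annotated exonic base of a gene once. *MYC* stood first in sgControl cells in DMSO at 1493 ± 86 (SD, n = 3), followed by *MXD4* at 700.7 ± 53, *MAX* at 529.8 ± 17 and *MXD3* at 260.9 ± 31. *MXI1* at 135.8 ± 8.1 and *MNT* at 135.2 ± 4.6 overlapped, and *MGA*, *MXD1*, *MYCL* and *MYCN* followed at 82.5, 32.3, 8.11 and 1.90. In abemaciclib *MXD4* reached 1551 ± 80 and stood above *MYC* at 1315 ± 105, with no overlap between the libraries. *MXD3* moved from rank 4 to rank 8 at 28.7 ± 1.7, below *MXD1* at 55.0 ± 1.9, and *MNT* moved from rank 6 to rank 4 at 209.7 ± 19, above *MXI1* at 163.8 ± 7.4.

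In the knockout the leading order did not change with the drug. *MYC* was at 1312 ± 35 and 1573 ± 84 per kilobase in DMSO and abemaciclib, *MXD4* at 863.2 ± 31 and 1208 ± 43, and *MAX* at 432.7 ± 11 and 452.1 ± 22. *MXD3* at 189.2 ± 9.1 overlapped *MNT* at 175.1 ± 10 in DMSO and lay below it in abemaciclib, at 182.9 ± 4.2 against 208.6 ± 14. *MGA* and *MXI1* overlapped in both treatments, as did *MYCN* and *MYCL*. Whether counts scale with length depends on the library kit, on which the labels and the general methods of the study differ.

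**Figure D3:**
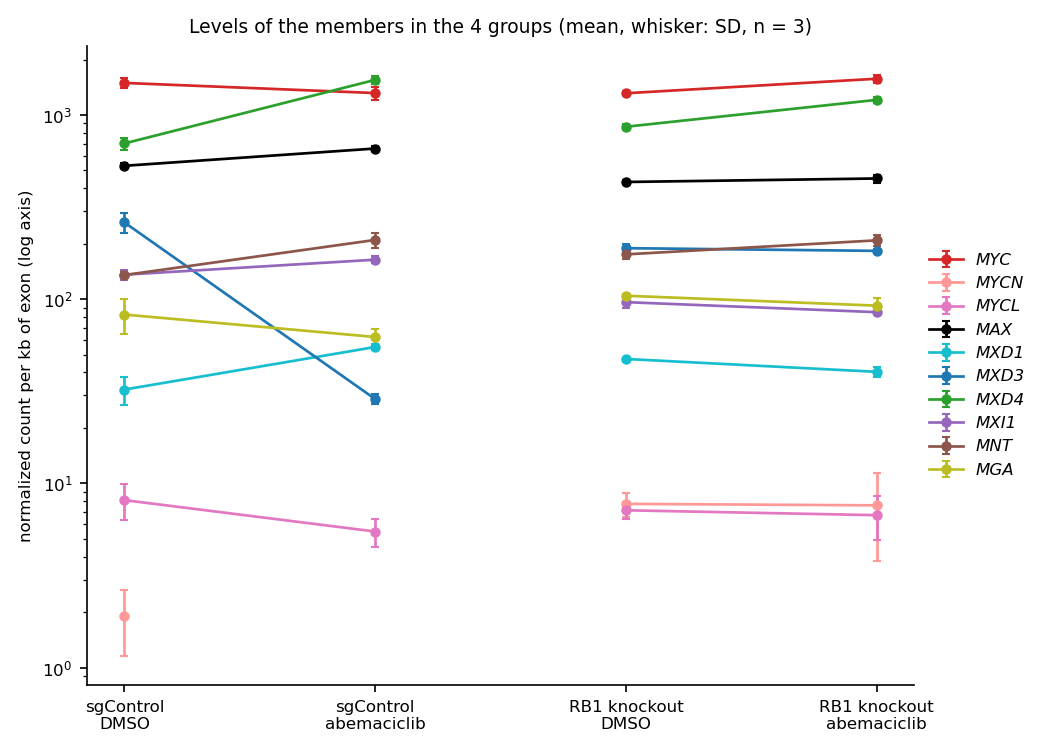
Mean normalized count per kilobase of exon (vertical axis, logarithmic) of each member in the 4 groups, with whiskers of 1 SD over 3 replicates; *MYCN* in sgControl cells in abemaciclib is at 0 and not drawn. *MXD4* crosses above *MYC* in sgControl cells in abemaciclib, at 1551 against 1315, and stays below it in the knockout.

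The antagonist side was then set against the activator side. Summed per kilobase, the 6 antagonists over the 3 activators gave ratios of 1.01, 0.852 and 0.837 in DMSO-treated sgControl cells and 1.70, 1.49 and 1.53 in abemaciclib, with means of 0.900 ± 0.096 and 1.57 ± 0.11. In the knockout the ratios were 1.09, 1.10 and 1.14 in DMSO and 1.18, 1.11 and 1.15 in abemaciclib, with means of 1.11 ± 0.02 and 1.15 ± 0.04. Every treated sgControl library lay above the other 9 libraries, and the knockout groups overlapped. Without length scaling the means were 1.08 and 1.89 in sgControl cells and 1.40 and 1.41 in the knockout, in the same order. The ratio is a description and was not tested.

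*MXD4* carried the shift. It made up 52.0% ± 1.4 of the antagonist sum in DMSO-treated sgControl cells and 74.9% ± 2.0 in abemaciclib, and 58.5% ± 0.9 and 66.5% ± 1.3 in the knockout. Without *MXD4* the other 5 antagonists over the activators gave 0.431 ± 0.033 and 0.396 ± 0.052 in sgControl cells and 0.462 ± 0.006 and 0.384 ± 0.025 in the knockout. For sgControl, the ratio of *MXD4* to *MYC* went from 0.472 ± 0.064 to 1.18 ± 0.07, and for the knockout it went from 0.658 ± 0.025 to 0.769 ± 0.020. That of *MXD3* to *MYC* went from 0.176 ± 0.032 to 0.0220 ± 0.0029 and from 0.144 ± 0.011 to 0.116 ± 0.007. *MYC* made up at least 98.7% of the activator sum in every library, so *MYCN* and *MYCL* hardly entered it.

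**Figure D4:**
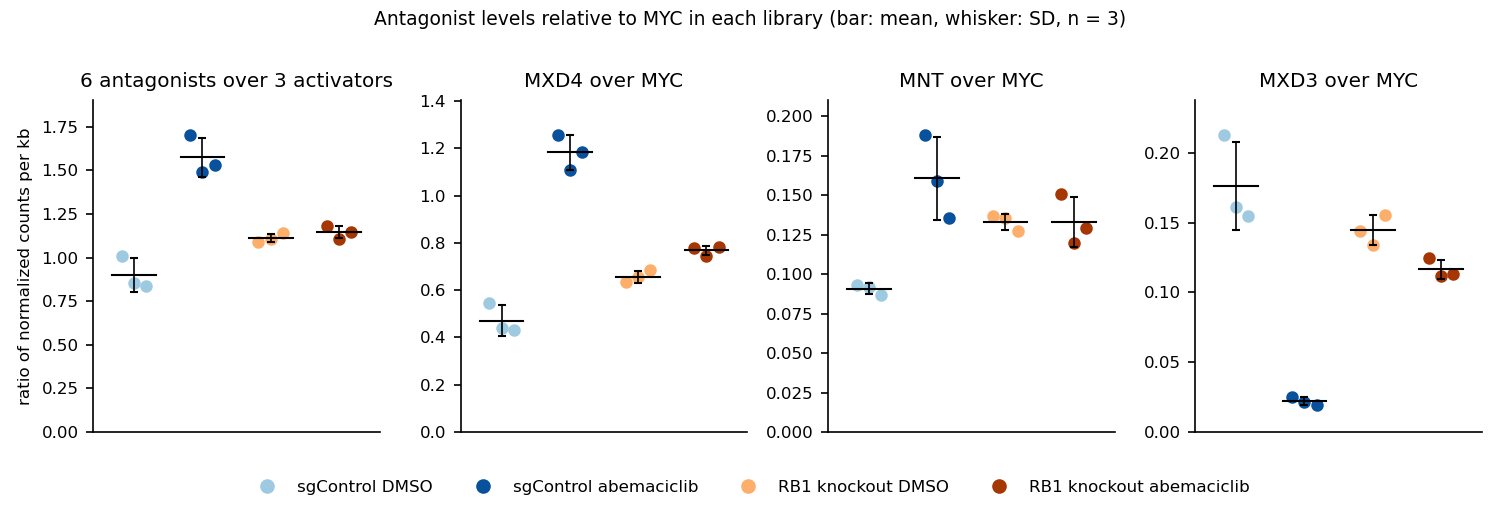
Ratios of normalized counts per kilobase in each library (vertical axes, linear from 0), with group mean and SD (n = 3), for the 6 antagonists over the 3 activators and for *MXD4*, *MNT* and *MXD3* over *MYC*. In sgControl cells the first ratio goes from 0.900 to 1.57 with abemaciclib, that of *MXD4* from 0.472 to 1.18, and that of *MXD3* from 0.176 to 0.0220.

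The genes outside the network whose levels over the 12 libraries were most like those of a member were listed for 3 members, by Pearson correlation of log2(normalized count + 1) among 11885 genes with a mean of at least 100. For *MXD3* they were *BIRC5* (r = 0.999), *HMGB2* (r = 0.998) and *CDK1* (r = 0.997), which encode a mitotic survival protein, a chromatin protein and a mitotic kinase. For *MXD4* they were *DLG4*, *SOX2* and *SLC35E1* (r = 0.992, 0.992 and 0.991), and for *MYC* they were *SPRY2*, *C4orf46* and *ZIC2* (r = 0.919, 0.888 and 0.857). The 12 libraries form 4 groups, so these values describe a shared order of the groups and carry no test. Within the network, *MXD4* and *MNT* had r = 0.845 and *MXD4* and *MXD3* had r = −0.833. Other pairs were stronger, among them *MYCN* and *MAX* (r = −0.946) and *MAX* and *MXI1* (r = 0.918).

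Partners of the antagonists were examined as lists. Over all genes tested 49.8% were called in sgControl cells and 30.0% in the knockout. Of 17 genes of the SIN3-HDAC corepressor, which MXD proteins and MNT recruit, 2 rose and 10 fell in sgControl cells in abemaciclib. The median log2 fold change was −0.21, against −0.02 over all expressed genes. The SIN3-associated subunits *SAP30* (−1.49 ± 0.08, adjusted p = 1.02e-72), *SAP30L* (−0.79 ± 0.07, adjusted p = 2.62e-29) and *BRMS1L* (−0.61 ± 0.12, adjusted p = 5.62e-07) fell most. The 2 that rose, picked out after their values were seen, were *SIN3B* (0.26 ± 0.08, adjusted p = 0.00167) and *ARID4A* (0.40 ± 0.08, adjusted p = 2.51e-06). In the knockout 2 rose and 4 fell, a total near the 30.0% of all genes called, with a median of −0.04.

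Of the 11 PRC1.6 partners of MGA, 2 rose and 6 fell in sgControl cells, against 49.8% of all genes called, with a median of −0.27. In the knockout 4 rose and 4 fell, against 30.0% of all genes called, with a median of 0.07. The Polycomb subunit *PCGF6* had a log2 fold change of −1.18 ± 0.10 in sgControl cells (adjusted p = 6.36e-33), and the E2F partner *TFDP1* had −0.81 ± 0.04 (adjusted p = 5.04e-80), while *WDR5*, which also serves MYC, had −0.60 ± 0.05 (adjusted p = 1.11e-27). *TFDP2* (0.51 ± 0.11, adjusted p = 3.56e-06) and *RNF2* (0.54 ± 0.07, adjusted p = 3.27e-13) rose and were picked out after their values were seen. The interactions of *PCGF6* and *TFDP1* were 0.89 ± 0.13 and 0.88 ± 0.06.

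The MLX arm is a parallel branch in which MLX, a relative of MAX, pairs with the glucose sensors MondoA (*MLXIP*) and ChREBP (*MLXIPL*) and drives *TXNIP* and *ARRDC4*. Of its 5 genes, 4 rose and 1 fell in sgControl cells, against 49.8% of all genes called, with a median of 0.68. *MLXIPL* rose by 1.86 ± 0.09 on the log2 scale (adjusted p = 7.41e-104), *TXNIP* by 1.17 ± 0.09 (adjusted p = 4.81e-39), *ARRDC4* by 0.68 ± 0.08 (adjusted p = 1.80e-18) and *MLXIP* by 0.66 ± 0.08 (adjusted p = 5.34e-14), while *MLX* had −0.16 ± 0.05 (adjusted p = 0.00565). In the knockout *MLXIPL* rose less (0.67 ± 0.09), *MLXIP* (−0.51 ± 0.09, adjusted p = 9.17e-08) and *ARRDC4* (−0.36 ± 0.08, adjusted p = 0.000116) fell, and *TXNIP* had 0.07 ± 0.09 (adjusted p = 0.608). The interactions of these 4 genes lay between −1.18 and −1.05, and that of *MLX* was 0.10 ± 0.07 (adjusted p = 0.320). Of the 5 genes 4 were called in the interaction, against 41.4% of all genes.

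Of 13 coactivators of MYC, 1 rose and 5 fell in the knockout, against 30.0% of all genes called. In sgControl cells 1 rose and 6 fell, a total near the 49.8% of all genes called. The median there was −0.05 against −0.02 over all expressed genes. *RUVBL1* (−1.04 ± 0.07, adjusted p = 2.03e-46) and *ACTL6A* (−0.90 ± 0.05, adjusted p = 7.96e-78), subunits of chromatin complexes, fell, and *CDK9*, the elongation kinase, rose (0.89 ± 0.04, adjusted p = 3.34e-86). Of 15 genes that act on MYC protein stability, 0 rose and 4 fell in the knockout, a total near the 30.0% of all genes called. The median there was −0.13. In sgControl cells 4 rose and 7 fell, against 49.8% of all genes called. Their median was 0.07 against −0.02 over all expressed genes. The genes that fell most in sgControl cells were the mitotic kinases *PLK1* (−4.40 ± 0.07) and *AURKA* (−2.30 ± 0.06). Each had an adjusted p-value below the smallest number the software can hold. Next came *CIP2A* (−2.07 ± 0.08, adjusted p = 1.45e-136), an inhibitor of the phosphatase PP2A. Total-count factors left 1 of the 4 stability genes that rose in sgControl cells, with 7 called lower.

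Listed target genes of MYC were called lower more often than higher in both genotypes, where over all genes tested 25.0% were called higher and 24.8% lower in sgControl cells and 14.9% and 15.1% in the knockout. Of 38 targets in ribosome biogenesis, 5 rose and 27 fell in sgControl cells, and 0 rose and 24 fell in the knockout, with median log2 fold changes of −0.34 and −0.24 against −0.02 over all expressed genes in each. The nucleolar methyltransferase *FBL* fell most in sgControl cells (−1.59 ± 0.09, adjusted p = 2.35e-72) and less in the knockout (−0.32 ± 0.09, adjusted p = 0.00140). *TCOF1* (−0.92 ± 0.07 and −0.39 ± 0.07) and *DDX18* (−0.81 ± 0.05 and −0.24 ± 0.05) were called lower in both. *RRP12* rose in sgControl cells (0.35 ± 0.06, adjusted p = 3.98e-08) and fell in the knockout (−0.51 ± 0.06, adjusted p = 1.08e-14). In the knockout *MYC* messenger RNA was called higher in abemaciclib than in DMSO, and 24 of these 38 genes were called lower. Whether these changes are related was not tested.

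Of 34 metabolic and translation targets, 3 rose and 24 fell in sgControl cells, with a median of −0.45, and 1 rose and 15 fell in the knockout, with a median of −0.17. The amino acid transporter *SLC7A5* fell in both genotypes (−2.35 ± 0.07, adjusted p = 2.84e-259, and −1.61 ± 0.07, adjusted p = 6.41e-125). *PTMA* (−1.52 ± 0.08, adjusted p = 2.57e-74), which encodes prothymosin, and *LDHA* (−1.20 ± 0.09, adjusted p = 1.38e-38), which encodes lactate dehydrogenase, fell in sgControl cells and had 0.04 ± 0.08 and −0.08 ± 0.09 in the knockout, neither past the threshold. *AMD1*, of polyamine synthesis, had −1.34 ± 0.06 and −0.30 ± 0.06, both called. The 3 that rose in sgControl cells, picked out after their values were seen, were *PKM* (1.04 ± 0.08, adjusted p = 1.84e-36), *EIF4A1* (0.78 ± 0.27, adjusted p = 0.00876) and *SLC2A1* (0.34 ± 0.06, adjusted p = 9.30e-09).

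Of 7 genes that MYC is known to repress, 2 rose and 4 fell in sgControl cells, against 49.8% of all genes called. In the knockout 0 rose and 4 fell, against 30.0% of all genes called. The cell cycle inhibitor gene *CDKN1A* fell in sgControl cells (−2.12 ± 0.06, adjusted p = 1.15e-248) and by less in the knockout (−0.35 ± 0.06, adjusted p = 2.95e-07). *GADD45A* (−1.26 ± 0.16, adjusted p = 1.80e-14) and *NDRG1* (−0.71 ± 0.19, adjusted p = 0.000716) also fell in sgControl cells. In the knockout *NDRG1* fell further (−1.71 ± 0.22, adjusted p = 6.49e-13), a difference between the genotypes that was called (adjusted p = 0.00246), and *GADD45A* had 0.04 ± 0.15 (adjusted p = 0.890). The 2 that rose, *NDRG2* (0.37 ± 0.10, adjusted p = 0.00108) and *CEBPA* (0.51 ± 0.07, adjusted p = 2.15e-12), are noted for their role in differentiation and were picked out after their values were seen. In the knockout both had lower levels with the drug (−0.46 ± 0.11 and −0.31 ± 0.07, adjusted p = 0.000231 and 0.000113).

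**Figure D5:**
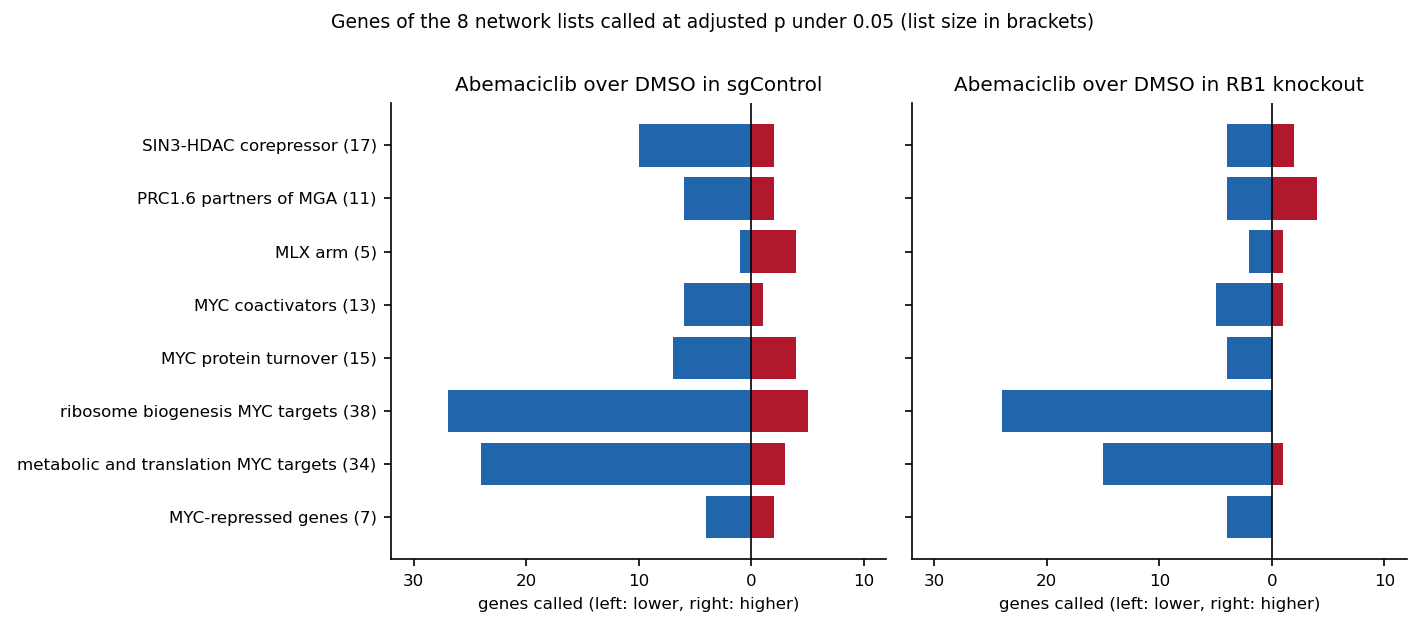
Number of genes of each of 8 lists called lower (bars to the left) or higher (bars to the right) under abemaciclib, in sgControl cells (left panel) and in the knockout (right panel), with the size of each list in brackets. In both panels the longest bars are the lower genes among the ribosome biogenesis targets, 27 and 24 of 38.

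Of 7 non-coding neighbours of the *MYC* family genes, 5 were in the table and 2 were tested. *PVT1*, beside *MYC*, had means of 202.2 ± 22 and 146.4 ± 24 in DMSO-treated sgControl cells and abemaciclib, and fell by 0.46 ± 0.15 on the log2 scale (adjusted p = 0.00402). In the knockout it had 203.8 ± 12 and 215.7 ± 11 and did not pass the test (0.08 ± 0.15), with an interaction of 0.55 ± 0.21 (adjusted p = 0.0228). *CASC11*, which overlaps *MYC* on the opposite strand, had means of 6.18 to 11.1 and passed no test. *MYCNOS*, opposite *MYCN*, had 4 raw counts in all, 2 in each knockout group, and *MYCNUT* and *MYCL-AS1* had 0.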

How the data were processed

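The authors deposited raw counts per gene for 12 RNA-seq samples: reads were trimmed with BBDuk, aligned to hg38 with STAR 2.7.5b and counted with featureCounts 2.0.1 on a GENCODE annotation. The strand setting and the treatment of multi-mapping reads are not given in the sources used here, so reads of overlapping genes may not be separable, and the labels (a directional kit) and the general methods (a 3′ kit) name different library kits. Of 60656 rows, 44 named NA were left out; they held 0% of the counts after rounding. Groups came from the sample titles.

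DESeq2 1.42.0 (R 4.3.3) was fitted to all 12 samples with a term for group and median-of-ratios size factors, without shrinkage or replicate block. Two-sided Wald tests of 5 contrasts were adjusted by Benjamini–Hochberg over all genes left by independent filtering, with a threshold of 0.05. All adjusted p-values are from this fit unless another is named. The code was tested on simulated data, in which all 200 changed genes were recovered. In the simulated sgControl response 25 of 225 DESeq2 calls were false, a share above the threshold. Every same-numbered pair of samples deviated together (r over 0.1 across genes) for the knockout against sgControl in abemaciclib (r = 0.15, 0.26 and 0.11), a pairing that comes from the data and not from the labels. In the sgControl response 2 pairs did so (r = 0.25 and 0.22) and replicate 3 did not (r = −0.08). Every pair of replicates differed by more than sampling noise (chi-square per gene of at least 3.32), so no library was counted as a duplicate. Gene positions and exon lengths are from GENCODE v44 on GRCh38.

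Genes named are the 10 members, *RB1* and *MKI67*. From each list of more than 5 genes, the 3 with the largest called change in the sgControl response and the 2 in the interaction were eligible (mean normalized count of at least 100), as was every gene of shorter lists and of the non-coding neighbours. For *MYC*, *MXD3* and *MXD4*, the 3 most correlated genes are named. Members and lists were chosen with earlier results of these data known. Alternatives were edgeR 4.0.16, total-count factors, other filters (at least 10 counts in 3 samples, or none), only the groups compared, the replicate block, and leaving out each sample.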

Additional observations from a re-analysis of the deposited data

Results flagged for a closer look

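For 8 members the response to abemaciclib in the knockout differed from that in sgControl cells by the interaction test of DESeq2, against 41.4% of all genes tested. The differences, knockout minus sgControl on the log2 scale, were 3.14 for *MXD3*, 0.44 for *MYC*, −0.99 for *MXD1*, −0.66 for *MXD4*, −0.45 for *MXI1*, −0.38 for *MNT* and −0.25 for *MAX*. The fitted value for *MYCN* was 4.92, which rests on a group with 0 counts and depends on the model, so it is no size. *MKI67* differed in the same comparison by 5.97 and the mitochondrial share rose in both genotypes; their part in these differences was not tested.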

How the results depend on the processing

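The number of members called stayed within 1.5 times the reported one under every alternative run: 7 to 9 for the sgControl response, 2 to 4 for the knockout response, 6 to 9 for the interaction, and, between genotypes, 7 to 9 without the drug and 8 with it. With the replicate block the counts were 9, 3, 8, 9 and 8, and no member's call changed; the fit assumes a pairing that the labels do not give. edgeR gave the same 5 counts. Among the refitted member values 22 lost and 3 gained the threshold, most of them named beside the results, and no called member changed sign. Of the list counts 821 stayed within 1.5 times, 21 fell further and 6 rose further. Total-count factors also lost the lower *MYC* (adjusted p = 0.0760) and higher *MGA* (adjusted p = 0.118) of the knockout in DMSO, and that *MGA* call was lost too with no filter (adjusted p = 0.0612) and with only the groups compared (adjusted p = 0.0683), where the *MGA* response in the knockout was called (adjusted p = 0.0190). Total-count factors left 40.1% in place of 50.2% of calls over all genes higher in the sgControl response, 63.8% in place of 51.0% in the interaction, and 4 higher and 5 lower members in place of 5 and 4 in the sgControl response; the cause was not tested.

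Values near 0 that passed no test changed sign. For *MNT*, the knockout against sgControl in abemaciclib was 0.11 with total-count factors, 0.0062 with only the groups compared and −0.084 to 0.039 with 1 replicate left out. With 1 replicate left out, the knockout responses ran from −0.51 to 0.21 for *MYCN*, −0.23 to 0.11 for *MYCL*, −0.0077 to 0.069 for *PTMA* and −0.021 to 0.14 for *GADD45A*, and *MYCL* in DMSO from −0.30 to 0.015. *CASC11*, with about 6 to 11 normalized counts, was at −0.0033 (edgeR), −0.12 (total-count factors) and −0.25 to 0.24 (1 replicate left out) in the sgControl response, at −0.26 to 0.16 in the knockout response, and at 0.014 and −0.35 to 0.14 in the interaction. Without length scaling the antagonist ratio was 1.08, 1.89, 1.40 and 1.41 in the groups as ordered above. Low counts limit *MYCN*, *MYCL* and *CASC11*.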
